A study of Mus musculus with 12 samples.

Results

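The serotonergic raphe neuron genes were *Tph2*, *Slc6a4*, *Fev*, *Gata2*, *Gata3*, *Lmx1b*, and *En1*. They were chosen by name, as genes known to mark or specify serotonin neurons of the raphe, with earlier results of these data known. All 7 were found among the 55418 genes of the count table. Brainstem (medulla and pons) RNA was measured in 12 outbred CFW mice at P15, with 1 library per mouse. The mice had been injected 2 times daily from P1 to P14 with saline or with 15 mg/kg morphine, and tissue was taken 16 h after the last injection. Each treatment was given to 3 females and 3 males, so spontaneous withdrawal was compared with saline in both sexes. All groups shared the strain, the age, and the injections themselves. The paper describes a mixed-litter design, in which pups of 1 litter were assigned at random to saline or morphine. CFW mice are not genetically identical, and the labels do not give the dam of a mouse, so littermates could not be taken into account.

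Serotonin neurons of the brainstem lie in the raphe nuclei along the midline and project to most of the brain and to the spinal cord, where they act on breathing, arousal, mood, and pain. *Tph2* encodes tryptophan hydroxylase 2, the rate-limiting enzyme of serotonin synthesis in neurons, and *Slc6a4* encodes the transporter that takes serotonin back up. *Fev* (also called Pet1), an ETS-family factor, *Lmx1b*, a LIM-homeodomain factor, and the zinc-finger factors *Gata2* and *Gata3* form the network that switches on and maintains this transmitter identity. *En1*, a homeodomain factor of the midbrain and anterior hindbrain, is needed for the rostral raphe. *Tph2*, *Slc6a4*, and *Fev* are nearly restricted to serotonin neurons within the brainstem. *Gata2* and *Gata3* are also used by GABAergic interneurons, *Gata2* by endothelial cells, *Lmx1b* by dopaminergic and dorsal sensory neurons, and *En1* by inhibitory interneurons and dopaminergic neurons.

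Promoters are shown for the genes whose levels are compared pairwise below, namely the enzyme and the transporter, *Fev*, and the pair *Gata2* and *Lmx1b*. Each run holds the 250 bases before the RefSeq start site on GRCm38.p6, written in the direction of transcription, and for *Gata2* it belongs to the first of its pair of listed starts. Capitals mark matches, on either strand, to a motif of the GATA factors, spelled AGATAA here. They also mark the ETS-family motif, for which the letters CGGAAG were searched, and a common homeodomain motif with the palindromic letters TAATTA.
Tph2, chr10:115185023-115185272, - strand: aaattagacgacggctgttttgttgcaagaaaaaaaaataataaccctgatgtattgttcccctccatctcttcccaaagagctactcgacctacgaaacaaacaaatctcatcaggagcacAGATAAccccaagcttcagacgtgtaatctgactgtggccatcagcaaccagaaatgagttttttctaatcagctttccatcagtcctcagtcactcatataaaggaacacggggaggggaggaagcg
Slc6a4, chr11:76998347-76998596, + strand: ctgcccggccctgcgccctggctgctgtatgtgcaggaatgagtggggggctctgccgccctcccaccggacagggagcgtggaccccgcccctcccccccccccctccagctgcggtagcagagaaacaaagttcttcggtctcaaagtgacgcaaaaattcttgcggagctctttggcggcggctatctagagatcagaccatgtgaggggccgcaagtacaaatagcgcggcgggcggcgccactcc
Fev, chr1:74885409-74885658, - strand: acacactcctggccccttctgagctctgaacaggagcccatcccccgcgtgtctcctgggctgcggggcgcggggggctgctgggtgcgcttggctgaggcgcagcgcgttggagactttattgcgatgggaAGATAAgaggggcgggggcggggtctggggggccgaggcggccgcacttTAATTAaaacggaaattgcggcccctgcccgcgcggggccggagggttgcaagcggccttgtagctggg
Gata2, chr6:88193641-88193890, + strand: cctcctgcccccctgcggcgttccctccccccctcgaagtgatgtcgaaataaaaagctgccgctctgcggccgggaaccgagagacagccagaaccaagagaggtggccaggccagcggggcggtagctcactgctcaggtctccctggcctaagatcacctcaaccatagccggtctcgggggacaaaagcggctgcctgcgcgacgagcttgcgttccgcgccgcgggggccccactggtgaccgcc
Lmx1b, chr2:33641099-33641348, - strand: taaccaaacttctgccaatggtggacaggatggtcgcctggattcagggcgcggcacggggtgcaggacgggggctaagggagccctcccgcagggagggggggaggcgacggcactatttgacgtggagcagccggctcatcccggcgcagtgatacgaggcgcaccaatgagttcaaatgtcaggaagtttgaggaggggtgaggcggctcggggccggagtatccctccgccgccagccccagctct
*Tph2* held the GATA motif with its first base 128 bases before the start, and *Fev* held it at 118 bases together with the homeodomain motif at 69 bases. *En1*, not printed here, held the ETS motif on its opposite strand at 152 bases. No match was found in these windows of *Slc6a4*, *Gata2*, *Gata3*, or *Lmx1b*. Of 32851 promoters of this length, 9.99% held the GATA motif, 13.6% the ETS motif, and 4.84% the homeodomain motif, and no match in the 7 genes overlapped another. GC content was 43.6% for *Tph2* against 64.8% for *Slc6a4*, 68.0% for *Fev*, 67.2% for *Gata2*, and 65.2% for *Lmx1b*, with a median of 52.4% over all promoters. The *Tph2* promoter thus had the lowest GC content of the 7 genes.

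Counts on genes totalled 27850565 to 48097947 per library. The female-specific *Xist* and the Y-linked *Ddx3y* were at 380.4 and 12.8 CPM in morphine male 6, whereas the other 5 libraries labelled male had at most 2.65 CPM of *Xist* and at least 114.9 CPM of *Ddx3y*. The 6 libraries labelled female had 550.4 to 978.7 CPM of *Xist* and at most 0.734 CPM of *Ddx3y*, so the library labelled morphine male 6 lay outside the range of either sex for both genes. Its group is the labelled one throughout, and the changes of the 7 raphe genes in males are also given without it. Saline male 3 had a wide effect on the tests, since 28.6% of genes tested were called in males without it, against 2.99% with it. *Slc6a5*, the glycine transporter of brainstem and spinal cord, and *Chat*, of cholinergic neurons, were at 467.6 to 636.1 and 7.34 to 13.0 CPM in the 12 libraries. Of the forebrain markers, *Emx1* and *Tbr1* were at no more than 0.153 and 0.783 CPM and *Neurod6* at 7.04 to 13.2 CPM. The deposited description of RNA extraction names spinal cords, whereas the labels give brainstem. All 7 raphe genes were counted in each of the 12 libraries.

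Levels per length of exon separated *Tph2*, *Slc6a4*, and the transcription factors. *Tph2* (ENSMUSG00000006764, chromosome 10, 115078641 to 115185022, minus strand) had the highest level, 10.9 ± 2.41 RPKM (SD, n = 12). *Slc6a4* (ENSMUSG00000020838, chromosome 11, 76998603 to 77032340, plus strand) followed at 4.01 ± 1.04 RPKM (SD, n = 12), lower than *Tph2* in 12 of 12 mice with no overlap between the ranges. *Lmx1b* (ENSMUSG00000038765, chromosome 2, 33560965 to 33640511, minus strand) was the most abundant of the transcription factors at 1.39 ± 0.423 RPKM (SD, n = 12), and its range did not overlap that of *Slc6a4*. The next neighbours overlapped in their ranges. *Gata2* (ENSMUSG00000015053, chromosome 6, 88193891 to 88207032, plus strand) and *Gata3* (ENSMUSG00000015619, chromosome 2, 9857078 to 9890034, minus strand) were at 0.859 ± 0.188 and 0.823 ± 0.140 RPKM (SD, n = 12), and *Gata2* was the higher of the pair in 6 of 12 mice, so these did not differ beyond their spread. *En1* (ENSMUSG00000058665, chromosome 1, 120602418 to 120607992, plus strand) was at 0.576 ± 0.148 RPKM (SD, n = 12), below *Gata3* in 12 of 12 mice. *Fev* (ENSMUSG00000055197, chromosome 1, 74881509 to 74885419, minus strand), which specifies these neurons, was the lowest at 0.356 ± 0.0996 RPKM (SD, n = 12) and lay below *En1* in 11 of 12 mice.

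The counts behind these levels set their precision. *Tph2* had 752 to 1298 counts per mouse, *Slc6a4* 419 to 849, *Lmx1b* 120 to 485, *Gata2* 103 to 290, *Gata3* 86 to 163, *En1* 26 to 74, and *Fev* only 10 to 30. The variance between libraries of the same group was 71.0 times that of counting for *Tph2* and 47.1 times for *Slc6a4*, so nearly all of their spread lay beyond counting error. For *Fev* it was 1.41 times, so most of the spread of *Fev* lay within counting error. With 1 library per mouse, differences between mice cannot be told from those of dissection or library preparation. The SD of log2 CPM within groups was 0.48 for *Lmx1b*, the largest of the 7 genes, and 0.26 for *Gata3*, the smallest, against a median of 0.28 over all genes tested. The strand setting of the counting is not given in the sources used here. In the GENCODE M21 annotation, the only genes with exons over those of a member both lay at *Gata3*, and they had at most 7 counts in any library. Whether reads over the shared exons were left out of the *Gata3* counts was not tested.

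Levels in single mice are given as CPM after TMM normalization, which scales each library to its effective size. The first question was whether the raphe genes differed between mice in morphine withdrawal and saline mice at P15. With both sexes combined, 6 morphine mice against 6 saline mice, none of the 7 genes passed the thresholds and the levels of the treatments overlapped for all 7, as they did for nearly all genes (0.0376% of genes tested did not overlap). A gene passed (was called) when edgeR's quasi-likelihood test gave an unadjusted *p* under 0.05 with an absolute log2 fold change over 0.26. Of 18608 genes tested, 1.19% were called in this comparison and 0 had an adjusted *p* under 0.05. In this and in each of the 4 other comparisons below, 0 of the 7 genes had an unadjusted *p* under 0.05, by edgeR's quasi-likelihood test and by DESeq2's Wald test. In bulk tissue, fewer serotonin neurons and less RNA per neuron cannot be told apart.

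*Tph2*, the synthesis enzyme, ranged from 19.7 to 38.5 CPM in saline mice with a median of 31.4, and from 24.7 to 41.9 CPM in morphine mice with a median of 30.4. Every morphine mouse except the highest, morphine female 3, lay within the saline range. The means were 32.2 ± 5.99 CPM in morphine and 30.3 ± 8.20 CPM in saline mice (SD, n = 6). The log2 fold change was 0.09 with a 95% confidence interval from -0.31 to 0.49, and its sign turned to -0.01 without saline male 2, the mouse with the lowest level, and to -0.02 without morphine female 3, the mouse with the highest. *Slc6a4*, the reuptake transporter, ranged from 12.3 to 23.6 CPM in saline mice with a median of 14.96, and from 12.9 to 25.2 CPM in morphine mice with a median of 19.8. The highest levels were those of morphine female 3 and morphine male 6, at 25.2 and 25.1 CPM, and the lowest were those of saline female 6 and morphine female 1. Its log2 fold change of 0.24 (95% confidence interval from -0.19 to 0.66) was the largest of the 7 genes in this comparison and did not pass (unadjusted *p* = 0.250, edgeR's quasi-likelihood test). It lay between 0.11, without morphine female 3, and 0.36, without saline male 1, when each mouse was left out in turn, and without morphine female 3 *En1* differed more, at -0.36.

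*Fev*, the serotonergic identity factor, ranged from 0.306 to 0.800 CPM in saline mice with a median of 0.581, and from 0.406 to 0.739 CPM in morphine mice with a median of 0.620. Its log2 fold change was 0.18 (95% confidence interval from -0.38 to 0.75), and leaving out morphine female 1 or saline male 1 gave its extremes, 0.057 and 0.29. *Lmx1b* ranged from 3.68 to 10.3 CPM in saline mice with a median of 5.80, and from 5.17 to 8.72 CPM in morphine mice with a median of 7.07. Both extremes of *Lmx1b* were saline males, and all morphine mice lay between them. Its log2 fold change was 0.06 (95% confidence interval from -0.45 to 0.56). *Gata2* ranged from 3.16 to 6.61 CPM in saline mice with a median of 4.62, and from 4.17 to 5.26 CPM in morphine mice with a median of 4.37. Like *Lmx1b*, this GATA factor had its highest and its lowest level in saline males. The log2 fold changes were -0.06 for *Gata2* (95% confidence interval from -0.45 to 0.32) and -0.08 for *Gata3* (from -0.43 to 0.26). *Gata3* ranged from 2.46 to 4.21 CPM in saline and from 2.65 to 3.84 CPM in morphine mice. *En1* ranged from 1.28 to 2.19 CPM in saline and from 0.801 to 1.96 CPM in morphine mice, and its log2 fold change was -0.18 (95% confidence interval from -0.67 to 0.30), with extremes of -0.36 and -0.08 when morphine female 3 or morphine male 4 was left out. The plot of levels in the 4 groups shows these ranges.

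**Figure D1:**
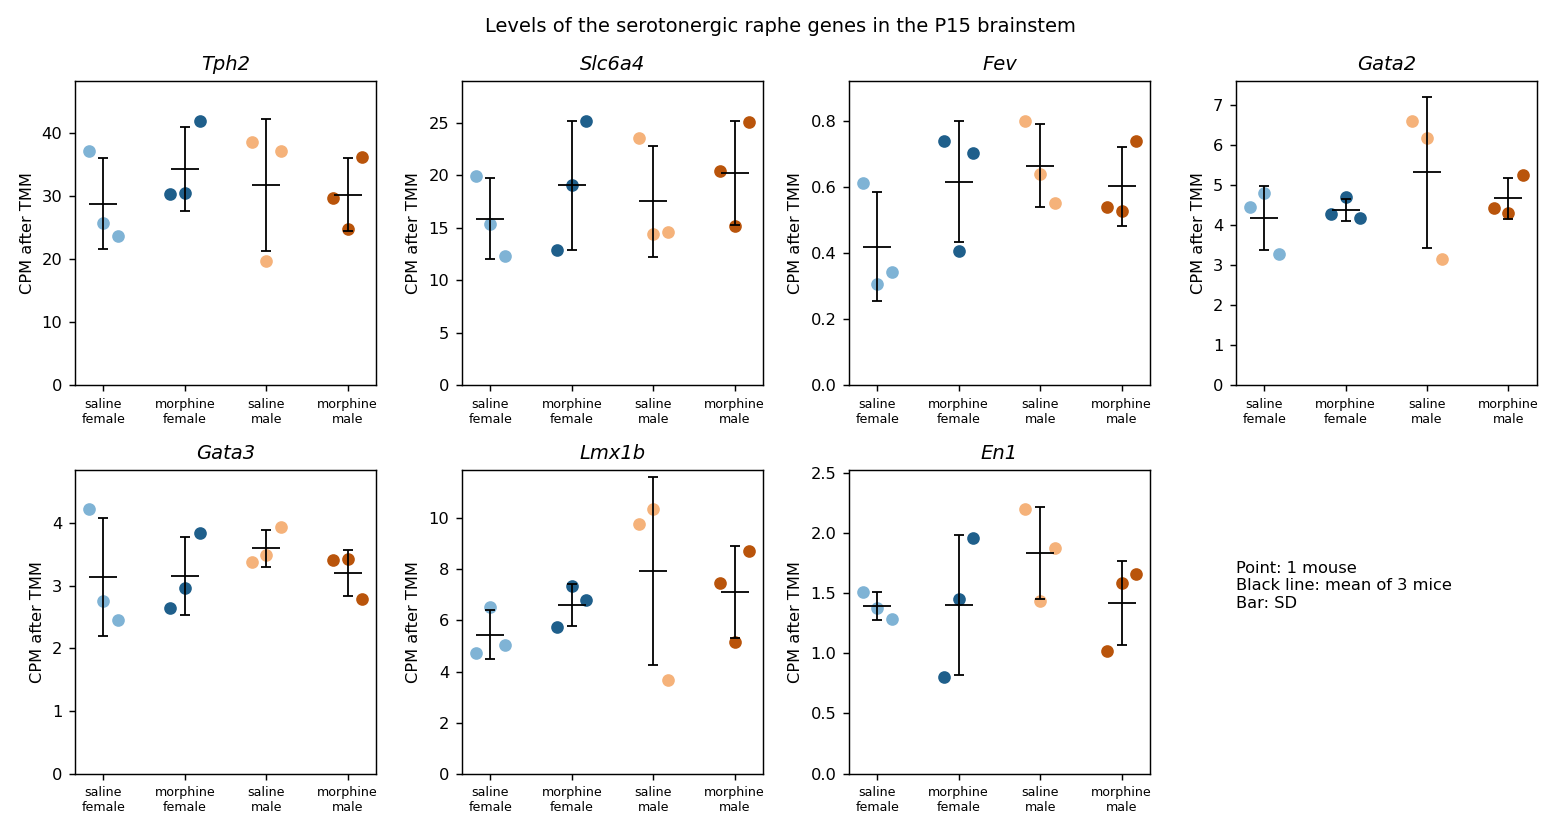
Level of each gene (CPM after TMM normalization, axis from 0) in the 4 groups, with 1 point per mouse, the mean of 3 mice as a black line, and the SD as a bar. The saline and morphine mice of each sex overlap for all 7 genes. Of the 18608 genes tested in the sex-combined comparison, 5.7% did not overlap in females and 8.89% did not in males. Relative to the mean, the widest spread is that of *Lmx1b* in saline males, from 3.68 to 10.3 CPM. In CPM itself it is that of *Tph2* in saline males, from 19.7 to 38.5.

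Females and males were compared separately. In females, 1.81% of 18109 genes tested were called and none of the 7 raphe genes was. *Tph2* was at 23.6, 25.7, and 37.0 CPM in saline females and at 30.4, 30.5, and 41.9 CPM in morphine females. Both groups thus had 1 mouse well above the other two, and they overlapped. The log2 fold change of *Tph2* in females was 0.24 (standard error 0.18), and without saline female 4, the highest saline female, it was 0.46 and passed (unadjusted *p* = 0.0136, edgeR's quasi-likelihood test). In that fit 7.95% of all genes tested were called. *Slc6a4* was at 12.3, 15.4, and 19.9 CPM in saline females and at 12.9, 19.1, and 25.2 CPM in morphine females, and its log2 fold change was 0.26 (95% confidence interval from -0.27 to 0.78), which fell to 0.0067 without morphine female 3. *Fev* was at 0.306, 0.343, and 0.610 CPM in saline females and at 0.406, 0.702, and 0.739 CPM in morphine females. This was the largest difference in females, with a log2 fold change of 0.53, but its 95% confidence interval ran from -0.42 to 1.49. *Lmx1b* (log2 fold change 0.28, standard error 0.18) had the smallest unadjusted *p* of the 7 genes in females, 0.154 from edgeR's quasi-likelihood test. *Gata2*, *Gata3*, and *En1* had log2 fold changes of 0.07, -0.01, and 0.00.

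In males, 2.99% of 18166 genes tested were called and again none of the 7 genes was. *Tph2* was at 19.7, 37.1, and 38.5 CPM in saline males and at 24.7, 29.6, and 36.2 CPM in morphine males, so the morphine males all lay inside the saline range. The log2 fold change of *Tph2* was -0.10 (standard error 0.29), and it was -0.26 without morphine male 6. *Slc6a4* was at 14.4, 14.6, and 23.6 CPM in saline males and at 15.1, 20.4, and 25.1 CPM in morphine males. Its log2 fold change of 0.18 (standard error 0.28) rested on morphine male 6 and was -0.01 without it. *En1* was at 1.43, 1.87, and 2.19 CPM in saline males and at 1.02, 1.58, and 1.66 CPM in morphine males, which gave the largest difference in males, a log2 fold change of -0.39 (95% confidence interval from -1.07 to 0.29). *Lmx1b* was at 3.68, 9.78, and 10.3 CPM in saline males and at 5.17, 7.45, and 8.72 CPM in morphine males. The low level of *Lmx1b* in saline male 3 widened the interval of its log2 fold change, -0.18, to between -1.15 and 0.78. *Gata2* was at 3.16, 6.19, and 6.61 CPM in saline males and at 4.31, 4.43, and 5.26 CPM in morphine males, and its log2 fold change was -0.21. Without saline male 3, it was -0.45 and passed (unadjusted *p* = 0.0342, edgeR's quasi-likelihood test), in a fit where 28.6% of all genes tested were called, so 1 of 7 raphe genes is no more than that background. *Fev* and *Gata3* had log2 fold changes of -0.16 and -0.19, and that of *Fev* lay between -0.35 (without morphine male 6) and -0.023 (without saline male 1). Without morphine male 6, the log2 fold changes of *En1*, *Lmx1b*, *Gata2*, and *Gata3* were -0.53, -0.37, -0.32, and -0.11, and none of the 7 genes passed.

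The difference between the sexes in the change with morphine was tested as an interaction. The change was lower in males than in females for 7 of the 7 genes, from -0.68 for *Fev* to -0.06 for *Slc6a4* on the log2 scale, although *Slc6a4* turned to 0.05 with scaling by total counts. The median over the 7 genes was -0.32, against -0.03 over the 19027 genes tested, of which 45.6% were positive. None of the 7 interactions passed, where 2.94% of all genes tested were called, and the smallest unadjusted *p* was 0.204, for *Fev* (edgeR's quasi-likelihood test). The members share mice and are not independent, so their common sign is a description. Without morphine male 6, the interaction was -0.48 for *Tph2* and -0.24 for *Slc6a4*, and again none passed. Without saline male 3, *Gata2* (-0.55) and *Lmx1b* (-0.81) passed, with unadjusted *p* of 0.0463 and 0.0156 from edgeR's quasi-likelihood test, and 24.1% of all genes tested were called in that fit.

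Levels also overlapped between the sexes for all 7 genes, where 0.14% of genes tested did not overlap. Male over female, with treatment as a covariate, the log2 difference was positive for 6 of the 7 genes, from -0.02 for *Tph2* to 0.33 for *Lmx1b*, with a median of 0.21 against -0.01 over all genes tested. None passed, where 3.94% of all genes tested were called. *Fev* was at 0.633 ± 0.115 CPM in the 6 males and 0.518 ± 0.190 CPM in the 6 females (SD), a log2 difference of 0.31 with a 95% confidence interval from -0.25 to 0.88. Without morphine male 6, the difference was 0.28 for *Lmx1b* and -0.07 for *Tph2*. Without saline male 3, *Gata2* (0.35) and *Lmx1b* (0.49) passed, with unadjusted *p* of 0.0297 and 0.0214 from edgeR's quasi-likelihood test, and 20.9% of all genes tested were called in that fit. The plot of estimates sets all 5 comparisons side by side.

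**Figure D2:**
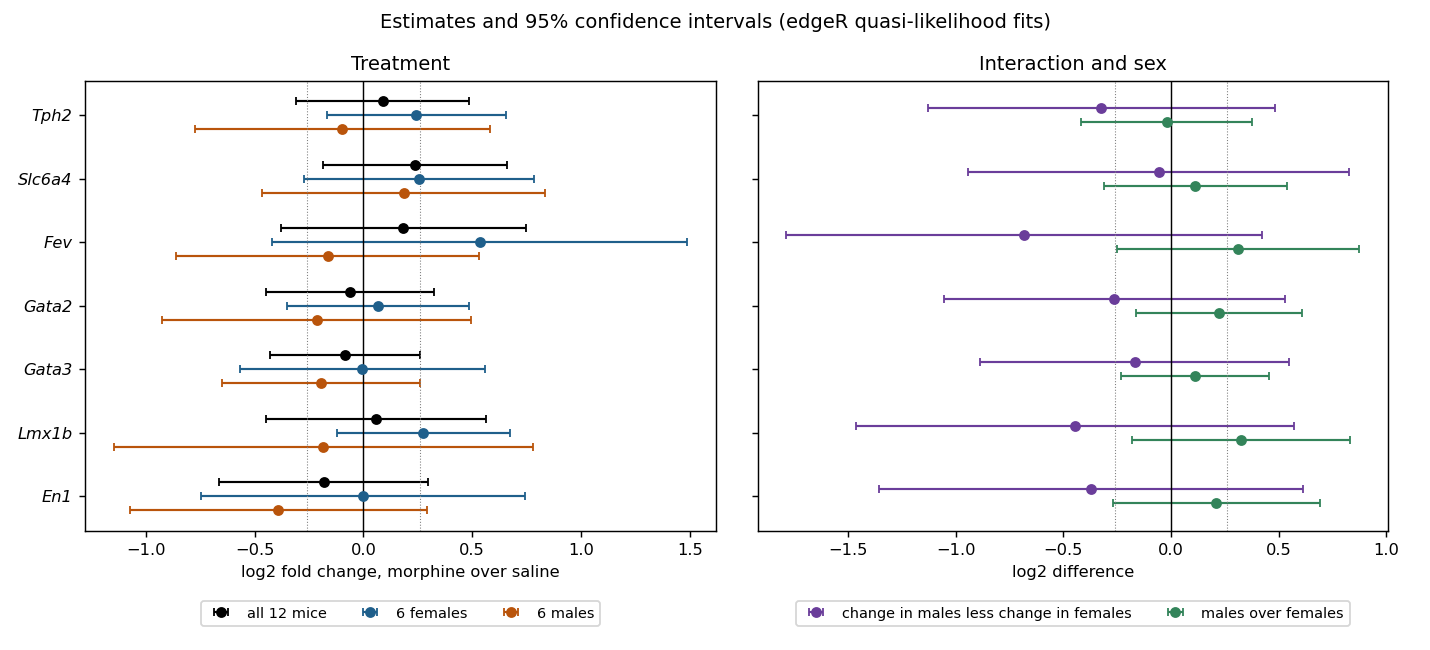
Log2 estimates (points) and 95% confidence intervals (bars) of the 7 genes from edgeR's quasi-likelihood fits, for morphine over saline in all mice, females, and males on the left, and for the interaction and the sex difference on the right. Dotted lines mark 0.26 on either side of 0. Every interval includes 0, and all 7 interaction estimates lie below 0, although that of *Slc6a4* turns to 0.05 with scaling by total counts.

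A ratio to *Tph2* does not depend on how much raphe tissue a sample held, as far as both genes come from the same cells. *Slc6a4* counts were 39.3% to 72.8% of *Tph2* counts in the 12 mice with a median of 60.6%. The lowest ratios were those of saline male 3 and morphine female 1, at 39.3% and 42.5%, and the highest was that of saline male 2. The mean was 60.8% ± 9.78 in morphine and 56.5% ± 11.2 in saline mice (SD, n = 6), and the log2 ratio differed by 0.11 (exact two-sided permutation test, *p* = 0.496). *Fev* counts were 1.19% to 3.25% of *Tph2* counts, and *En1* counts 2.64% to 7.25%. The *En1* ratio gave the largest difference between treatments, 4.41% ± 1.28 in morphine against 5.48% ± 1.03 in saline mice (SD, n = 6), a log2 difference of -0.35 (exact two-sided permutation test, *p* = 0.136, adjusted *p* = 0.818 over the 6 ratios). *Lmx1b* counts ranged more widely, from 9.93% of *Tph2* counts in saline male 3 to 52.5% in saline male 2, with a median of 22.7%. *Gata2* counts spanned 8.53% to 31.4% of *Tph2* counts between the same mice, and *Gata3* counts 7.67% to 17.6%. None of the 6 ratios passed, and the smallest *p* that 6 mice against 6 allow in this exact test is 0.00216. Within a sex the smallest possible exact *p* is 0.1, and only *Gata3* in females reached it, with a log2 difference of -0.24.

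**Figure D3:**
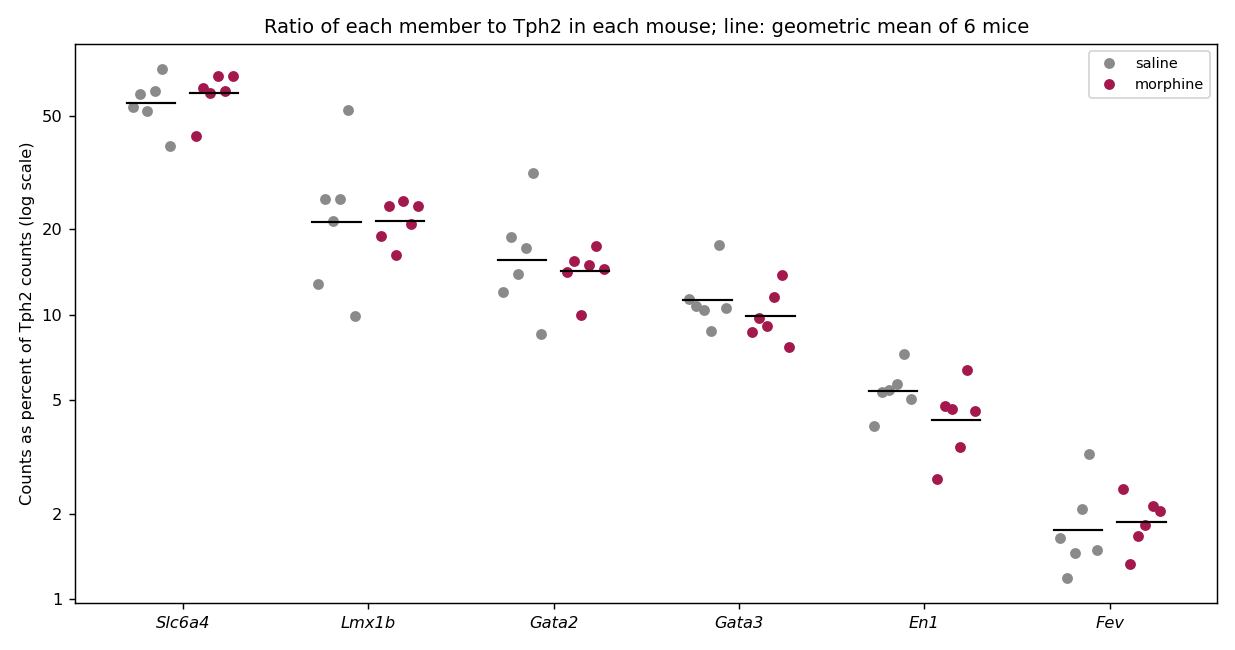
Counts of each gene as a percent of *Tph2* counts (log axis) in each of 6 saline (grey) and 6 morphine (red) mice, with the geometric mean as a line. The treatments overlap for every gene, and saline male 2 stands highest among the saline mice for all 6 ratios, at 52.5% for *Lmx1b* and 31.4% for *Gata2*.

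Across the 12 mice, the genes did not move as 1 block. *Gata2* and *Lmx1b* were the most alike of the 21 pairs, with a Pearson *r* of 0.88 (permutation test, *p* = 0.00015, adjusted *p* = 0.00315 over 21 pairs). Spearman's rho of this pair was 0.78 (permutation test, *p* = 0.00433), with an adjusted *p* of 0.0909 that did not pass. Saline males 1 and 2 had the highest levels of both genes and saline male 3 the lowest. Without saline males 1 and 3, the mice farthest from the median of *Gata2*, *r* was 0.79, and it stayed between 0.835 and 0.922 when each mouse was left out in turn. Within the groups, after subtraction of group means, *r* was 0.88, and it was 0.95 in males, 0.52 in females, 0.93 in saline mice, and 0.75 in morphine mice.

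*Gata2* and *Lmx1b* had *r* of -0.07 and -0.14 with *Tph2* over the 12 mice. Both values rested on few mice, since without saline male 2 and morphine female 3, the mice farthest from the median of *Tph2*, they were 0.36 and 0.18. *Tph2* with *Lmx1b* had an *r* of 0.57 in morphine and -0.39 in saline mice, a difference that was not tested. The levels parted most in saline male 2, which had the lowest *Tph2* level of all mice, 19.7 CPM, and the highest *Lmx1b* level, 10.3 CPM. Saline male 3 was its reverse, with 37.1 CPM of *Tph2* and 3.68 CPM of *Lmx1b*, the lowest of all mice. Markers of other cells that use these factors were summed in each mouse. Of saline males 1, 2, and 3, the first pair had the highest and the last the lowest levels of both factors. The 7 endothelial markers summed to 294.5, 324.0, and 255.0 CPM in these males. Over the 12 mice this sum was highest in saline male 2. It was lowest in morphine female 1, at 253.6 CPM, just below saline male 3. The 5 dopaminergic markers summed to 14.97, 6.83, and 11.7 CPM in these males, so saline male 2, with the highest *Lmx1b* level, had the lowest sum of the 3. This sum was largely *Nr4a2* and *Otx2*, with means of 5.85 and 3.08 CPM over the 12 mice. *Slc6a3*, *Foxa1*, and *Pitx3* had means of 1.755, 0.072, and 0.019 CPM, so the sum is a weak measure of dopaminergic cells. The interneuron list (*Tal1*, *Tal2*, *Sox14*, and *Foxd3*) summed to 10.8, 10.4, and 11.7 CPM, and the dorsal sensory list (*Tlx3*, *Prrxl1*, and *Lbx1*) to 10.3, 15.3, and 14.9 CPM. The part of these cells in the levels of *Gata2* and *Lmx1b* was not tested.

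*Tph2* and *Slc6a4*, the enzyme and the transporter of the same neurons, had an *r* of 0.71 (permutation test, *p* = 0.0121) that did not pass after adjustment (adjusted *p* = 0.127 over 21 pairs). Their rho was 0.68, and *r* was 0.64 without the mice farthest from the median of *Tph2*, saline male 2 and morphine female 3. Leaving out saline male 3, where *Tph2* was high and *Slc6a4* low, raised *r* to 0.82 and the pair then passed. *Tph2* with *Fev* had an *r* of 0.51 and *Slc6a4* with *Fev* of 0.48, and the low counts of *Fev* limit both. *Tph2* with *En1* had a Pearson *r* of 0.45 and a rho of 0.71 (permutation test, *p* = 0.0134, adjusted *p* = 0.131). *Gata2* and *Gata3*, which belong to the same family, had an *r* of 0.03. Of the 21 pairs, 1 passed.

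**Figure D4:**
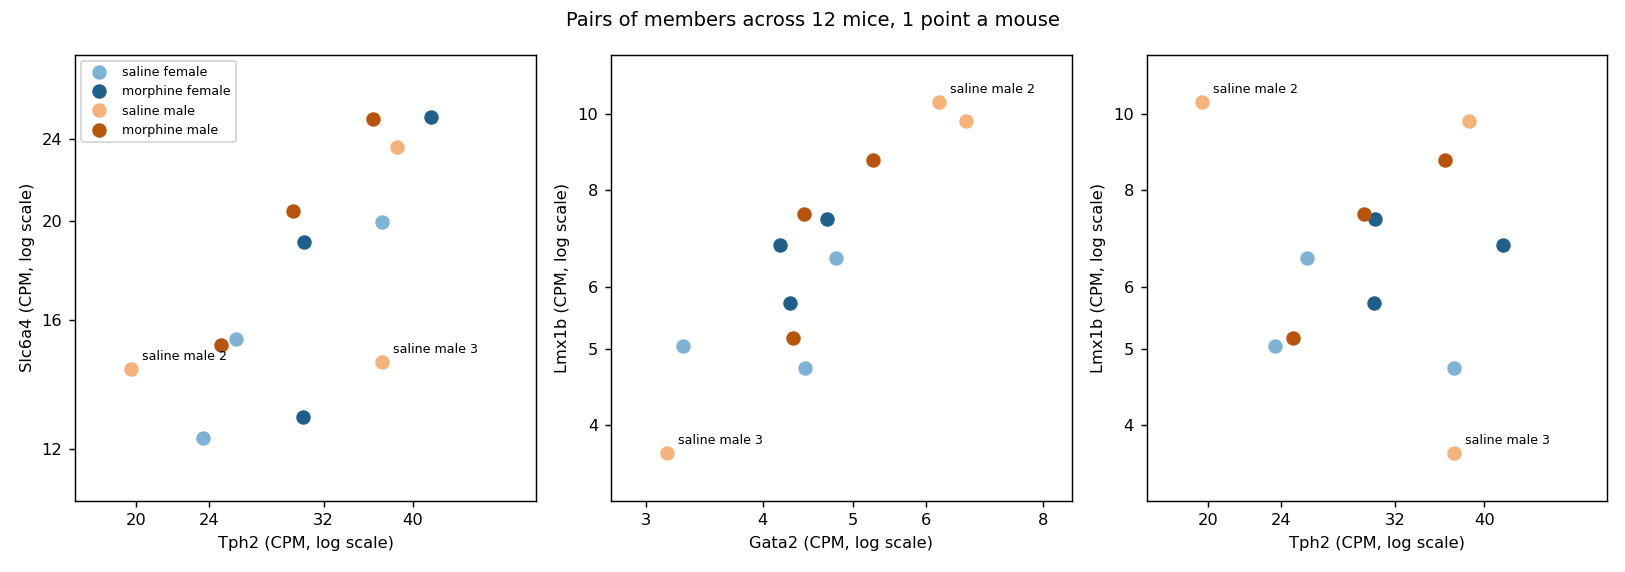
Levels (CPM, log axes) of *Slc6a4* against *Tph2*, *Lmx1b* against *Gata2*, and *Lmx1b* against *Tph2*, with 1 point per mouse coloured by group. *Gata2* and *Lmx1b* lie along a line with saline male 2 and saline male 3 near its ends, and in the right panel the same mice fall at opposite corners.

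**Figure D5:**
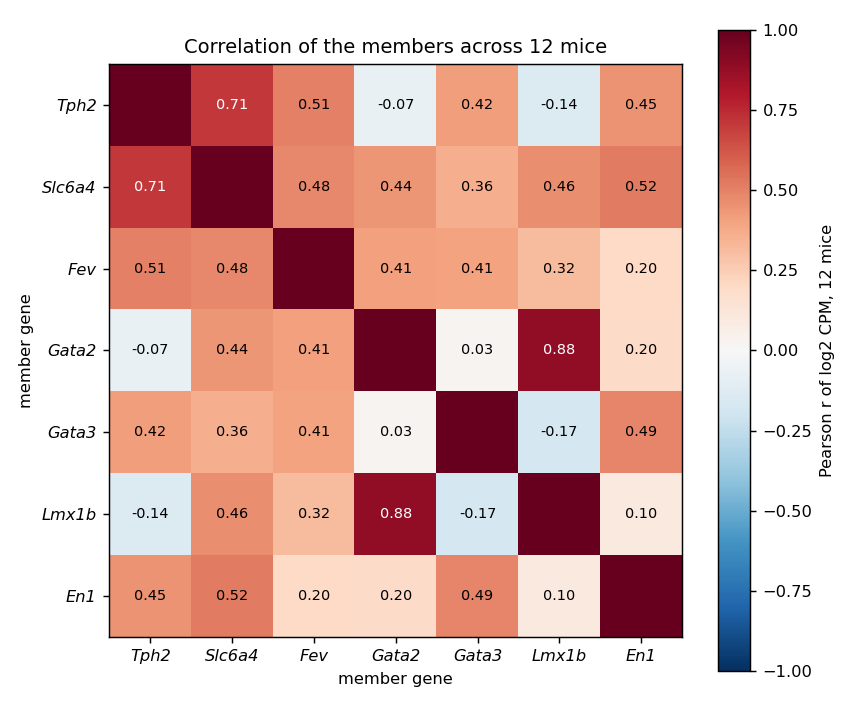
Pearson *r* of log2 CPM over 12 mice for every pair of the 7 genes (colour scale from -1 to 1). The strongest pair is *Gata2* with *Lmx1b* (0.88), followed by *Tph2* with *Slc6a4* (0.71), and the lowest is *Gata3* with *Lmx1b* (-0.17).

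Genes with a pattern like that of the serotonergic markers were sought over the same 12 mice, using the mean z-score of *Tph2*, *Slc6a4*, and *Fev*. This profile was highest in morphine female 3, saline male 1, and morphine male 6, and lowest in saline females 5 and 6 and saline male 2, so the highest mice came from both treatments and the 3 lowest were saline mice. Of 16717 genes with a mean of at least 0.5 CPM, the most alike were *Chrna6*, a nicotinic receptor subunit of catecholamine neurons (*r* = 0.89), and *Ddc*, the decarboxylase that makes serotonin and dopamine (*r* = 0.86). *1700001L19Rik* (0.86), *Narf* (0.85), *Oprl1*, the nociceptin receptor gene (0.85), *Rab3ip* (0.85), *Amph* (0.84), *Otp*, a hypothalamic and brainstem homeodomain factor (0.84), *9330162012Rik* (0.84), and *Dok5* (0.83) followed. With 12 mice, 7.70% of the genes compared had an *r* over 0.5, so each value is a description. After subtraction of group means, *r* was 0.91 for *Chrna6* and 0.88 for *Ddc*. *Slc18a2*, the vesicular monoamine transporter, had an *r* of 0.69 and *Gch1*, which makes the hydroxylase cofactor, of 0.67. The 12 genes of serotonin handling (synthesis and its cofactor, storage, uptake, and breakdown) had *r* from 0.86 for *Ddc* to -0.155 for *Pts*. Among them, *Maob* and *Maoa* were at -0.06 and -0.09. The 7 receptor and transporter genes used by raphe neurons had *r* from 0.65 for *Slc17a8* to -0.18 for *Htr5b*, with *Htr1a* at 0.02. The noradrenergic genes *Dbh*, *Slc6a2*, and *Th* had *r* of 0.65, 0.60, and 0.55. The dopaminergic genes *Slc6a3*, *Nr4a2*, and *Otx2* had *r* of 0.77, 0.185, and -0.05, and the cholinergic *Chat* of 0.53. The 5 noradrenergic markers summed to 23.6, 24.4, and 26.8 CPM in the 3 mice with the highest profile and to between 10.25 and 20.7 CPM in the others, and the part of such cells in this pattern was not tested.

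Other genes of serotonin neurons were read from lists beside the 7 genes. Of the 12 genes of serotonin handling, 12 were tested and 0 passed in any of the 5 comparisons. Their median log2 fold change was -0.03 in the sex-combined comparison, 0.13 in females, and -0.13 in males, against -0.02, -0.01, and -0.06 over all genes tested. *Ddc* was at 38.9 ± 5.67 CPM in morphine and 38.1 ± 7.46 CPM in saline mice (SD, n = 6), a log2 fold change of 0.03. *Slc18a2* was at 45.8 ± 6.33 and 42.1 ± 10.2 CPM (SD, n = 6), a log2 fold change of 0.12. *Maob*, the monoamine oxidase found in serotonin neurons and astrocytes, had a log2 fold change of -0.04. As with the 7 genes, the interaction was negative for 12 of these 12 genes, with a median of -0.23, but for 9 of them with scaling by total counts, and none passed.

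Of 5 earlier specification factors (*Foxa2*, *Nkx2-2*, *Nkx6-1*, *Insm1*, and *En2*), 4 were tested and 0 passed in any comparison, with a sex-combined median of -0.11. Of the 7 receptor and transporter genes used by raphe neurons, 7 were tested and 0 passed, with a median of 0.02, although DESeq2's Wald test called *Htr5b* (edgeR log2 fold change -0.26) lower in morphine mice. *Htr1a*, the autoreceptor of serotonin neurons, was at 21.2 ± 1.70 CPM in morphine and 20.96 ± 1.43 CPM in saline mice (SD, n = 6), a log2 fold change of 0.02. *Slc17a8*, the vesicular glutamate transporter shared by some raphe neurons, had a log2 fold change of 0.29 (95% confidence interval from -0.14 to 0.71).

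Some genes of other cells and of neighbouring tissue passed. In the sex-combined comparison, 0 of 4 noradrenergic, 0 of 3 dopaminergic, 0 of 4 interneuron, 0 of 2 dorsal sensory, 0 of 7 endothelial, and 0 of 2 forebrain genes tested passed. *Slc6a2*, the noradrenaline transporter, had a log2 fold change of 0.45 (95% confidence interval from -0.02 to 0.93) and was called higher in morphine mice by DESeq2's Wald test and with scaling by total counts. Of the 6 cerebellar genes, *Gabra6* (log2 fold change 0.99) and *Fat2* (0.39), both of granule cells, were higher in morphine mice. The summed cerebellar level was 50.0 to 98.7 CPM in morphine and 38.9 to 56.5 CPM in saline mice, with morphine male 5 the highest. Of the 14 caudal Hox genes tested, *Hoxb4* (-0.33), *Hoxc5* (-0.28), and *Hoxc6* (-0.70) were lower in morphine mice and the median was -0.24, and *Hoxb2* (-0.47), of the 6 brainstem genes, was lower as well. The summed caudal Hox level was 122.3 to 164.7 CPM in morphine and 138.8 to 205.7 CPM in saline mice. With scaling by total counts, *Hoxc6* was the only one of these 4 Hox genes that passed. The part of cerebellar and caudal tissue in the raphe values was not tested. By sex, *Slc6a3* (1.84) passed as higher and *Hoxb7* (-0.47) and *Hoxc6* (-0.76) as lower in females, whereas *Otx2* (1.02), *Gabra6* (1.35), and *Fat2* (0.81) passed as higher and *Hoxc6* (-0.67) as lower in males. The call of *Hoxb7* in females was lost with DESeq2's Wald test, with DESeq2's size factors, and with scaling by total counts. *Sox14* (-1.07) and *Fat2* (0.89) passed in the interaction, and the call of *Sox14* was lost with DESeq2's Wald test and with scaling by total counts. Between the sexes, *Otx2* (1.56), *Barhl1* (0.61), and *Pcp2* (1.18) were higher and *Hoxa7* (-0.80), *Hoxb8* (-0.43), and *Hoxd8* (-1.67) lower in males. After adjustment over all genes tested, edgeR's quasi-likelihood test left none of these genes under 0.05. Of all genes tested, 1.81% were called in females, 2.99% in males, 2.94% in the interaction, and 3.94% between the sexes. Calls of the listed genes are given with all labelled mice only, without leaving out morphine male 6 or saline male 3. Their dependence on single mice is thus not shown. *Otx2* had 10 to 286 counts per library and *Slc6a3* had 7 to 230.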

How the data were processed

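Brainstem RNA of 12 mice at P15 was sequenced (100 bp, single-end) on 1 lane. For trimming the authors used Trimmomatic, for alignment to mm10 STAR, and for counting per gene featureCounts, and the deposited values are raw counts. Totals were 27850565 to 48097947 per mouse. The strand setting and tool versions are not given in the sources used here. Groups came from the labels. The members and gene lists were chosen with earlier results of these data known.

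Comparisons used the quasi-likelihood test in edgeR 4.0.16 (R 4.3.3), with TMM normalization and filterByExpr, with Benjamini-Hochberg adjustment over all genes tested. Sex was a covariate in the sex-combined fit, females and males were also fitted alone, and the interaction was fitted over 12 mice. Genes were called at an unadjusted *p* under 0.05 when the log2 fold change also exceeded 0.26 in size. In these fits, *p* values set a difference against the spread between libraries, with 1 library per mouse, and littermates were not taken into account. Levels are CPM on TMM-scaled library sizes, or RPKM over the union of GENCODE M21 exons. Logs for correlations had a prior count of 2. Ratios to *Tph2* were compared with exact permutation tests, and the 21 pairs with 100000 permutations each (Python 3.11.15, SciPy 1.17.1). The fits were tested on simulated data.

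Named were the 7 members, every listed gene that was called, *Ddc*, *Slc18a2*, *Maob*, *Htr1a*, and *Slc17a8*, the 10 genes most like the profile, and *Xist* and *Ddx3y*. *Htr5b*, *Slc6a2*, the markers of the tissue check, and other genes of the like-pattern paragraph were added after their values were seen. Symbols were matched to GENCODE M21 on GRCm38, and all 7 members had a RefSeq promoter. The listed symbol *Drgx* was read as *Prrxl1*, its name in the table. Some genes of these lists are not reported here and are left out of the list counts and sums. Alternatives were exactTest, DESeq2 1.42.0, total counts or DESeq2's size factors for scaling, a filter of 10 counts in every library or none, the replicate number as a block, no covariate, a shared fit of 12 mice, *p* alone as threshold, another prior count or pseudocount, another denominator of the ratios, group-centred values, and leaving out each mouse.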

Additional observations from a re-analysis of the deposited data

Results flagged for a closer look

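In 26 sets of 6 mice (levels and ratios of the 7 genes by treatment), 3 held a mouse that lay far from the other 5 by Dixon's test, and chance flags about 1 in 20 sets. All 3 were ratios to *Tph2*. In saline male 2, *Lmx1b* counts were 52.5% of *Tph2* counts, where the other 5 saline mice had 9.93% to 25.5%. In the same mouse, *Gata3* counts were 17.6% of *Tph2* counts, where the others had 8.78% to 11.4%. This mouse had the lowest *Tph2* level of the 12, 19.7 CPM, and its *Gata3* level of 3.48 CPM lay within the range of the other saline mice. Both ratios share the low *Tph2* denominator. In morphine female 1, *Slc6a4* counts were 42.5% of *Tph2* counts, where the other 5 morphine mice had 60.1% to 69.3%. Its *Slc6a4* level was 12.9 CPM, the lowest of the morphine mice, and its *Tph2* level was 30.4 CPM, near the median.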

How the results depend on the processing

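None of the 7 genes passed in any comparison under the alternative tests, scalings, filters, covariates, and thresholds. Of 277 single values under such alternatives, both fold changes and ratios to *Tph2*, 270 kept their direction and stayed below the thresholds. With *p* alone as threshold the estimates were those of the main fits again, so their direction could not change. The number of genes that passed changed only when 1 mouse was left out, from 0 to between 0 and 1 in females (without saline female 4, where 7.95% of all genes were called) and in males (without saline male 3, where 28.6% were), and to between 0 and 2 in the interaction and in the sex difference (both without saline male 3, where 24.1% and 20.9% were). The number of correlated pairs was between 1 and 2, with 2 without saline male 3. None of the 6 ratios passed under any alternative. With the replicate number as a block, 0 genes and 0 ratios passed, and *Slc6a4* had a log2 fold change of 0.23. Mice with the same number did not deviate together (correlations from -0.36 to 0.18, and 0 of 6 saline mice correlated best with their own number), so no sign of pairing by number was seen. Each number joined a male and a female, and the labels do not give the dam, so shared litters could not be tested.

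Scaling by total counts moved the median of all genes by 0.13 in males and 0.10 in the interaction. It turned *Tph2* in males to 0.029, *Slc6a4* in the interaction to 0.048, and *Gata3* and *En1* in females to 0.0017 and 0.0012. The share of called genes that were higher went from 64.3% to 91.3% in males with it, and from 51.1% to 72.7% in the sex-combined comparison. In the contrast from the fit of 12 mice, *Gata3* and *En1* in females were 0.0010 and 0.0052. The log2 ratio of *Lmx1b* to the sum of *Tph2* and *Slc6a4* differed by -0.037. Leaving out single mice turned the sign of 39 of 408 single values, none of which had passed. Over these fits, sex-combined log2 fold changes lay from -0.022 to 0.18 for *Tph2*, from -0.18 to 0.035 for *Gata2*, from -0.18 to 0.024 for *Gata3*, and from -0.094 to 0.19 for *Lmx1b*. In females they lay from -0.17 to 0.26 for *Gata3*, from -0.31 to 0.28 for *En1*, and from -0.072 to 0.18 for *Gata2*. In males they lay from -0.35 to 0.085 for *Tph2*, from -0.49 to 0.055 for *Lmx1b*, and from -0.014 to 0.45 for *Slc6a4*. The interaction of *Slc6a4* lay from -0.29 to 0.22, and the sex difference from -0.0099 to 0.26 for *Slc6a4* and from -0.11 to 0.10 for *Tph2*. The log2 ratios to *Tph2* differed by -0.31 to 0.068 for *Gata2*, by -0.22 to 0.26 for *Lmx1b*, and by -0.013 to 0.28 for *Fev*.

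The intervals show what 3 or 6 mice per group could not resolve. In the sex-combined comparison they reach 0.49 for *Tph2* and 0.75 for *Fev* on the log2 scale, and *Fev*, with 10 to 30 counts per mouse, is limited by depth as well.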
